A study of Mus musculus with 8 samples.

Results

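The 10 genes described here encode the liver X receptors (LXR) and the cholesterol efflux, lipoprotein and lipid storage proteins that these receptors are known to control or that stand next to them. They were chosen by symbol, as Nr1h3, Nr1h2, Abca1, Abcg1, Apoe, Mylip, Lpcat3, Lpl, Plin2 and Ch25h. The rule itself uses no expression value, but the genes were listed with earlier results of these data known. All 10 were found in both deposited tables, which list 13676 genes with PBS and 14193 genes for IL-4. The libraries were made from bone-marrow-derived macrophages of female mice aged 12 weeks, either wild type (WT) or knockout for NF-κB-inducing kinase (NIK KO). Marrow cells grew for 7 days in 30% medium conditioned by L929 cells, a fibroblast line that secretes the growth factor M-CSF, and went into 5% on replating. Cells of 2 WT and 2 NIK KO mice then received PBS or 20 ng/mL interleukin 4 (IL-4) for 6 hours, which gave 8 libraries in 4 groups of 2. The same 4 mice stand behind both treatments, and the sources used here do not state the allele, strain or litter of the mice.

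LXRα (Nr1h3) and LXRβ (Nr1h2) are nuclear receptors that bind oxysterols, pair with retinoid X receptors and switch on genes that remove cholesterol from the cell. In macrophages the best known of these targets are Abca1 and Abcg1, which load cholesterol onto lipoprotein particles, and Apoe, the apolipoprotein that macrophages secrete. LXR and its partner bind a direct repeat of the bases AGGTCA with 4 bases between the repeats, called a DR4 element. The same receptors restrain uptake through Mylip and remodel membrane phospholipids through Lpcat3.

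The promoter of Abca1 is shown because Abca1 had the smallest p-value of the 10 genes and because its DR4 element is a textbook LXR site. The 250 bases before its start (RefSeq, GRCm38.p6, chr4:53159896-53160145, minus strand of the genome, printed in the direction of the gene) hold the element in capitals. Read on the opposite strand of the gene, its 16 bases match 9 of the 12 fixed bases of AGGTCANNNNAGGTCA, and it lies 67 to 52 bases before the start.
Abca1 promoter: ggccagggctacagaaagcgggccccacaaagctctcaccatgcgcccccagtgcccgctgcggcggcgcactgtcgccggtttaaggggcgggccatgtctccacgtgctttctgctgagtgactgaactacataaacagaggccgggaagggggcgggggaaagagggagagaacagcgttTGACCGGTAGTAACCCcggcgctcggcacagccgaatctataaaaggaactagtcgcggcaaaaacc
The closest matches in the windows of 3 other members are printed beside the Abca1 element, on the strand on which they match, with the repeats in capitals and the spacer in lower case.
Abca1: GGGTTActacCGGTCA
Nr1h3: AGGTCCcggcACGGCC
Lpcat3: AGGTAGgaagAGGGCG
Ch25h: AGGGAAagggAGGTGG
The last 3 match 8 bases each. The closest matches of Nr1h2, Apoe and Plin2, not printed, also reached 8 bases, and that of Mylip reached 6. How common 8 matching bases are among all windows was not counted. RefSeq windows were matched for 8 of the 10 genes, 11 windows in all, and Abca1 alone reached 9 matching bases. Among 32851 promoter windows of the same length, 18.5% reached 9 matching bases on either strand, so a match of this length is common. The STAT6 motif TTCNNNNGAA, which reads the same on both strands, was in 0 of the 11 windows and in 5.85% of all windows. Abcg1 and Lpl were not matched.

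The tables hold 1 deposited value for each gene and comparison, so single libraries are not shown and their depth is unknown. Group means below are normalized counts recovered from the deposited base mean and fold change. Fold changes are NIK KO over WT on the log2 scale, with the deposited standard error, 2 mice against 2, and intervals are 95% intervals from that error. Map3k14, the gene of NIK, stood higher in the libraries labelled NIK KO in the authors' deposited table, at 1.09 ± 0.28 with PBS (DESeq2 adjusted p = 0.176) and 0.99 ± 0.22 with IL-4 (adjusted p = 0.00782). That goes against the label of a knockout, the sources used here do not state which part of the gene was removed, and a reversed direction of the tables would turn every sign below. Nfkb2 and Relb, also named to check the labels, were lower on the NIK KO side in both tables. In the authors' deposited table Nfkb2 stood at -0.51 ± 0.34 with PBS and -0.13 ± 0.25 with IL-4. Relb stood at -0.32 ± 0.34 and -0.11 ± 0.27 there, and neither gene had a DESeq2 p under 0.05. Of 8 listed genes of noncanonical NF-κB, Map3k14 included, 2 were higher with PBS and 4 with IL-4. The macrophage markers were all 8 listed in both tables. Their summed means were 630387 normalized counts in WT and 643729 in NIK KO with PBS, and 497076 and 472088 with IL-4, sums in which Lyz2 weighs most. With IL-4 5 of the 8 were higher in NIK KO (median 0.11), and Adgre1, which encodes F4/80, stood at 0.54 ± 0.18 in the authors' deposited table (DESeq2 p = 0.00320, adjusted p = 0.672), a fold change like that of Abca1. Arg1, a marker of the IL-4 response, had a base mean of 23.9 with PBS and 7663 with IL-4, tables that were normalized separately.

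None of the 10 genes was called between the genotypes (adjusted p under 0.05 by DESeq2 as deposited) under either treatment. The background share of called genes is 0.0366% with PBS and 0.12% with IL-4. Relative to WT, 7 members were higher and 3 lower with PBS in NIK KO, with a median log2 fold change of 0.14 beside -0.01 over all genes. With IL-4 9 were higher and 1 lower, with a median of 0.20 beside -0.01 over all genes. The share of all genes that were higher was 48.3% with PBS and 48.9% with IL-4. At an unadjusted p under 0.05 stood 0 members with PBS, where 1.24% of genes did, and 2 with IL-4, Abca1 and Abcg1, where 2.95% did. Because of how the genes were listed, these counts are descriptions. In both treatments 7 members were higher, Ch25h was lower, and Nr1h2 and Lpcat3 had opposite signs.

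**Figure D1:**
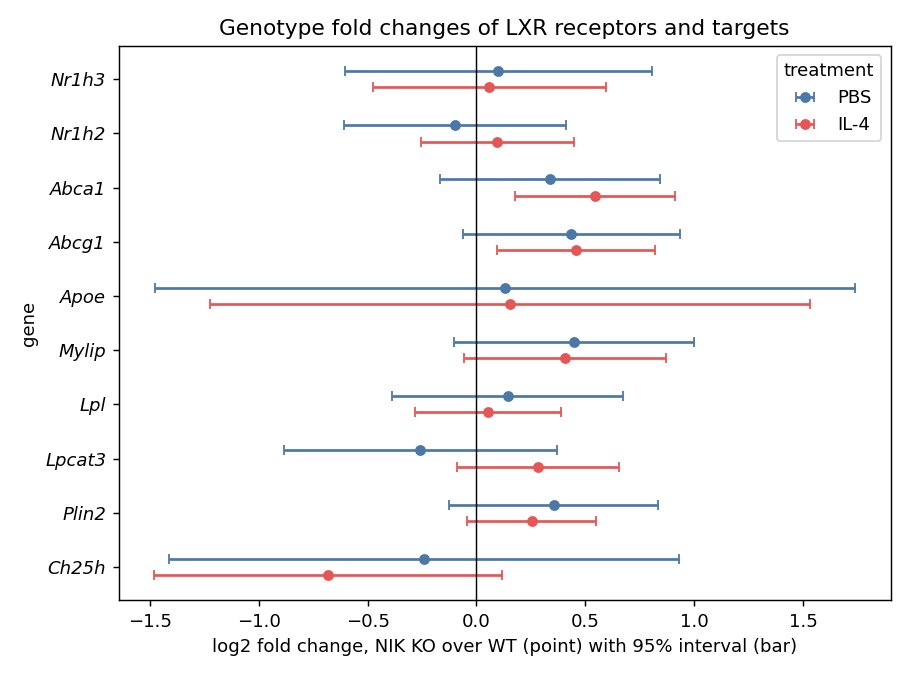
Log2 fold change of each gene, NIK KO over WT (horizontal axis, points), with its 95% interval (bars), for PBS and IL-4. The IL-4 bars of Abca1 and Abcg1 lie wholly above 0, every other bar crosses 0, and the bars of Apoe are the widest.

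The group means of the 2 receptors were close between the genotypes, with the uncertainty given below. Nr1h3 (ENSMUSG00000002108, chromosome 2) is itself an LXR target in some cells, which was not tested in these macrophages. It had mean normalized counts of 903 in WT and 968 in NIK KO with PBS. The authors' deposited table puts it at 0.10 ± 0.36 with PBS (DESeq2 p = 0.780). With IL-4 its means were 733 and 764, a fold change of 0.06 ± 0.27 in the authors' deposited table (DESeq2 p = 0.827). The intervals run from 0.66-fold to 1.75-fold with PBS and from 0.72-fold to 1.51-fold with IL-4. The standard error of Nr1h3 was wide for its level. It exceeded that of 97.2% of the 3959 genes within 2-fold of its base mean with PBS. With IL-4 it exceeded that of 95.3% of the 4296 such genes. Nr1h2 (ENSMUSG00000060601, chromosome 7), the receptor found in nearly all cells, had means of 1508 and 1406 with PBS. The authors' deposited table gives it -0.10 ± 0.26 with PBS (DESeq2 p = 0.698). With IL-4 its means were 1584 and 1694, at 0.10 ± 0.18 in the authors' deposited table (DESeq2 p = 0.589). Its interval with IL-4, from 0.84-fold to 1.36-fold, is the narrower of the receptors' intervals. Per kilobase of the longest transcript, the base mean of Nr1h2 was 729 with PBS and 820 with IL-4, above those of Nr1h3, 471 and 377. That order between genes has no test here.

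Among the members, the exporters were the genes with the highest deposited fold changes on the NIK KO side under IL-4. Abca1 (ENSMUSG00000015243, chromosome 4), the full transporter that hands cholesterol and phospholipid to lipid-poor apolipoprotein A-I, had means of 1131 in WT and 1649 in NIK KO with IL-4. This 1.46-fold difference (interval 1.13 to 1.88) stood at 0.54 ± 0.19 in the authors' deposited table, with DESeq2 p = 0.00371 and adjusted p = 0.724. It ranked 70 of 14193 genes by p, first among the members. With PBS the means of Abca1 were 1430 and 1806, at 0.34 ± 0.26 in the authors' deposited table (DESeq2 p = 0.192). The promoter element printed above belongs to this gene.

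Abcg1 (ENSMUSG00000024030, chromosome 17), a transporter that works as a dimer and passes cholesterol to high-density lipoprotein, had means of 4381 in WT and 6021 in NIK KO with IL-4. The 1.37-fold difference (interval 1.07 to 1.77) stood at 0.46 ± 0.18 in the authors' deposited table, with DESeq2 p = 0.0131 and an adjusted p of 1.00. It ranked 146 by p. With PBS its means were 1590 and 2152, at 0.44 ± 0.25 in the authors' deposited table (DESeq2 p = 0.0860), the smallest p of the members with PBS. The fold changes of Abcg1 in the 2 tables, which use the same mice, differ by 0.02.

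The transcripts of the exporters are long, 10262 bases for Abca1 and 5832 for Abcg1 in GENCODE M21. With IL-4 the median fold change was 0.14 in the fifth of genes with the longest transcripts and -0.11 in the fifth with the shortest, among genes of base mean 100 or more. After a smooth trend on transcript length was subtracted, Abca1 stood at 0.39 and Abcg1 at 0.35 with IL-4. With PBS these medians were 0.01 and -0.03, and the exporters stood at 0.33 and 0.42 after subtraction.

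Apoe (ENSMUSG00000002985, chromosome 7) was among the most abundant genes of the cells and the least precisely compared. Its means were 18332 in WT and 20081 in NIK KO with PBS, and 12636 and 14077 with IL-4. The authors' deposited table gives 0.13 ± 0.82 with PBS (DESeq2 p = 0.873) and 0.16 ± 0.70 with IL-4 (DESeq2 p = 0.825). The standard error of Apoe exceeded that of 97.3% of the 150 genes within 2-fold of its base mean with PBS, whose median was 0.24, and 99.4% of the 327 such genes with IL-4, whose median was 0.16. That error corresponds to a coefficient of variation of about 56.9% between libraries with PBS and 48.7% with IL-4, against 17.7% and 12.7% for Abca1. By default DESeq2 draws the spread of most genes toward a common trend and leaves genes far above that trend at their own value, so the smaller figures are partly those of the trend. The interval of Apoe reaches from 0.36-fold to 3.34-fold with PBS and from 0.43-fold to 2.90-fold with IL-4, so a 2-fold genotype difference in either direction lies within it.

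**Figure D2:**
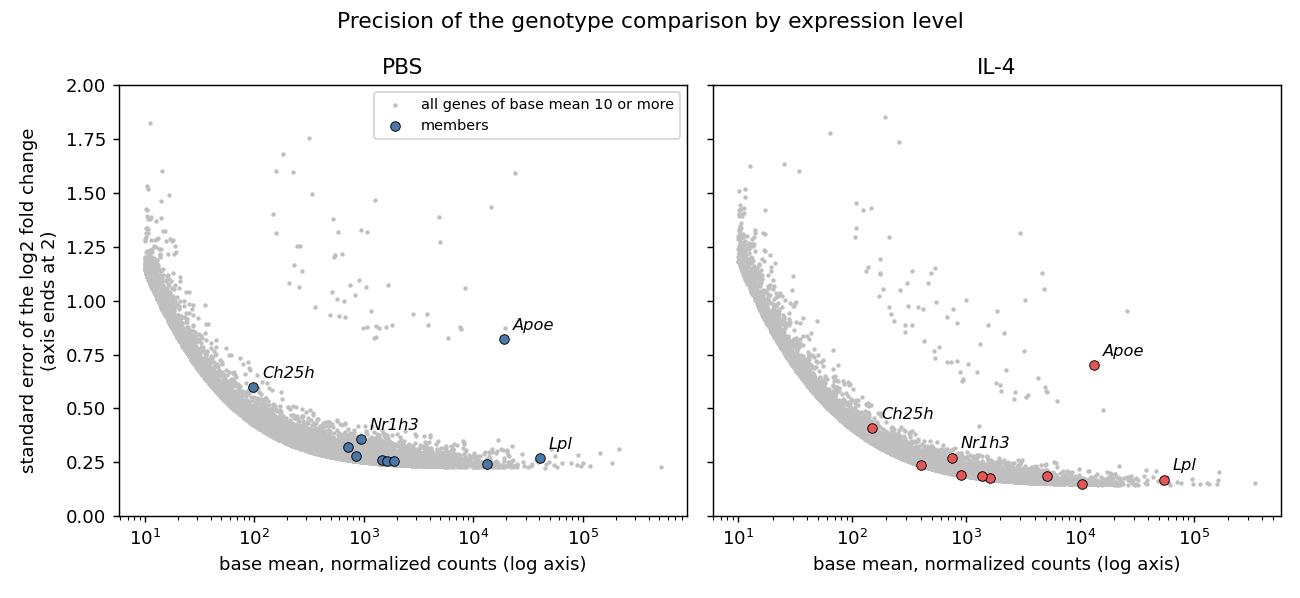
Standard error of the log2 fold change (vertical axis) against base mean in normalized counts (log axis) for all genes of base mean 10 or more (grey) and the 10 members (coloured), PBS left and IL-4 right. Apoe stands far above the genes of its own level, at 0.82 with PBS and 0.70 with IL-4, while Lpl lies at 0.27 and 0.17.

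Of the genes that act on lipoproteins and membranes, Mylip stood higher on the NIK KO side by a like amount in both treatments without passing the test. Mylip (ENSMUSG00000038175, chromosome 13) encodes IDOL, the ubiquitin ligase that sends lipoprotein receptors to degradation. Its means were 726 in WT and 990 in NIK KO with PBS, at 0.45 ± 0.28 in the authors' deposited table (DESeq2 p = 0.111). With IL-4 they were 345 and 457, at 0.41 ± 0.24 in the authors' deposited table (DESeq2 p = 0.0872). Its targets Vldlr and Lrp8 are part of the uptake list below.

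Lpl (ENSMUSG00000015568, chromosome 8), the lipoprotein lipase that frees fatty acids from lipoprotein triglyceride, had the highest base mean of the 10 genes in both tables. Its means were 38397 in WT and 42404 in NIK KO with PBS, and 53510 and 55526 with IL-4. In the authors' deposited table it stood at 0.14 ± 0.27 with PBS (DESeq2 p = 0.597) and 0.05 ± 0.17 with IL-4 (DESeq2 p = 0.754). The interval with IL-4, from 0.82-fold to 1.31-fold, is among the narrowest of the members.

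Lpcat3 (ENSMUSG00000004270, chromosome 6), an acyltransferase that puts polyunsaturated fatty acids into phospholipids, was lower with PBS and higher with IL-4. Its means were 785 in WT and 656 in NIK KO with PBS, at -0.26 ± 0.32 in the authors' deposited table (DESeq2 p = 0.419). With IL-4 they were 821 and 999, at 0.28 ± 0.19 in the authors' deposited table (DESeq2 p = 0.137). The 2 effects differed by 0.54 (interval -0.19 to 1.27), the largest such difference among the members. The z statistic of that difference was 1.45, with an adjusted p of 1.00 over all genes. Lpcat3 overlaps Emg1 on the other strand in GENCODE M21, and Emg1 stood at -0.02 ± 0.28 under PBS and -0.15 ± 0.20 under IL-4 in the authors' deposited table. The sources used here do not state whether the counting used strand, so reads of the overlap cannot be assigned with certainty.

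Plin2 (ENSMUSG00000028494, chromosome 4), the coat protein of lipid droplets in macrophages, had means of 11770 in WT and 15051 in NIK KO with PBS, and 9608 and 11459 with IL-4. In the authors' deposited table it stood at 0.35 ± 0.24 with PBS (DESeq2 p = 0.147) and 0.25 ± 0.15 with IL-4 (DESeq2 p = 0.0925). Neither difference passed, although its standard error was the smallest of the members in both tables. In the reference 8.45% of the 31-base words of its longest transcript also occur in another gene, Gm12551 above all, and the other members share at most 2.26%.

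Ch25h (ENSMUSG00000050370, chromosome 19), cholesterol 25-hydroxylase, makes 25-hydroxycholesterol, an oxysterol that acts on LXR and on sterol synthesis. It was the member with the lowest level and the 1 that stood lower on the NIK KO side in both treatments. Its means were 107 in WT and 90.2 in NIK KO with PBS, at -0.24 ± 0.60 in the authors' deposited table (DESeq2 p = 0.688). With IL-4 they were 183 and 114, at -0.68 ± 0.41 in the authors' deposited table (DESeq2 p = 0.0947). The interval with IL-4 reaches from 0.36-fold to 1.09-fold.

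**Figure D3:**
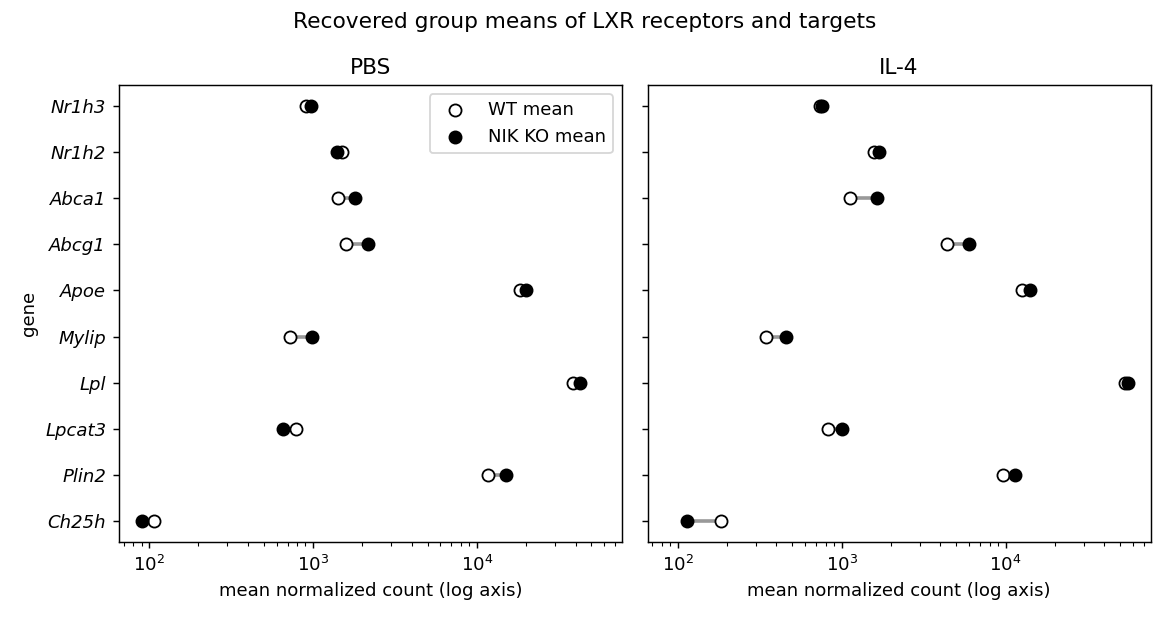
Mean normalized count of each gene (log axis) in WT (open circles) and NIK KO (filled circles), PBS left and IL-4 right, each treatment normalized separately. The pairs of circles are short beside the range from Ch25h, at 90.2 in NIK KO with PBS, to Lpl, at 55526 in NIK KO with IL-4.

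The precision sets what a call would have needed. The smallest absolute Wald statistic among called genes was 4.46 with PBS and 4.06 with IL-4. At that statistic the members' standard errors correspond to fold changes from 2.13 (Plin2) to 12.7 (Apoe) with PBS and from 1.53 (Plin2) to 7.22 (Apoe) with IL-4. For Abca1 the corresponding values were 2.22-fold and 1.69-fold, above the 1.26-fold and 1.46-fold measured. The interval reached a 2-fold higher level in NIK KO for 1 member in each table, Apoe, and a 2-fold lower level for 2 members in each, Apoe and Ch25h.

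A change of the genotype effect between treatments was found for 0 of the 10 genes (z test on the DESeq2 fold changes, adjusted p of 1.00 for each, and 0 at an unadjusted p under 0.05), where the background was 0.0149% adjusted and 0.867% unadjusted of 13384 genes. With an error correlation of 0.5 between the tables, since the mice are shared, 20 genes in place of 2 were called, and still 0 members. The interval of the difference between treatments was -0.59 to 0.64 for Abcg1, -0.42 to 0.83 for Abca1 and -0.76 to 0.68 for Mylip.

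Some members stood far apart in level between the treatments, with similar ratios in both genotypes. These levels come from tables that were normalized separately and carry no test, and the median ratio of IL-4 over PBS means across 9148 genes of base mean 100 or more was 1.20 in WT and 1.21 in NIK KO. Abcg1 stood 2.76-fold higher with IL-4 in WT and 2.80-fold in NIK KO, above 98.6% and 98.4% of those genes. Mylip stood at 0.475 of its PBS level in WT and 0.461 in NIK KO, in the lowest 0.765% and 0.721%. The 2 LXR targets thus lay at opposite ends of the same scale.

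Abca1, the partner of Abcg1 in efflux, did not share its rank. Its IL-4 over PBS ratio was 0.791 in WT and 0.913 in NIK KO. Apoe had ratios of 0.689 and 0.701, Plin2 0.816 and 0.761, and Nr1h3 0.811 and 0.789, all under the median of all genes. Lpl was above it at 1.39 and 1.31, as was Ch25h at 1.72 and 1.27. Nr1h2 had ratios of 1.05 and 1.20, and Lpcat3 1.05 and 1.52, the pair of ratios that lay farthest apart between genotypes. In WT 7 members lay below the median ratio and 3 above it, and in NIK KO 6 and 4.

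Per kilobase of the longest transcript, the members fell into a high and a low group. With PBS the base mean per kilobase was 13641 for Apoe, 9818 for Lpl and 7103 for Plin2, and with IL-4 it was 9486, 13249 and 5579. The other 7 genes lay between 70.9 and 729 with PBS and between 107 and 892 with IL-4, Ch25h lowest in both. Abcg1 moved from 321 with PBS to 892 with IL-4, which took it past both receptors. Apoe and Lpl changed places between the tables, and the error of Apoe is wide.

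The other genes of the pathway were counted from lists that hold none of the members. Of 17 further LXR targets listed in each table, 11 were higher and 6 lower on the NIK KO side with both treatments, with medians of 0.21 with PBS and 0.18 with IL-4. DESeq2 called 0 of them, and 1 had an unadjusted p under 0.05 in each table. That gene was Cd5l, a secreted protein of macrophages that LXR is known to induce. Cd5l had means of 1597 in WT and 3315 in NIK KO with PBS, at 1.05 ± 0.29 in the authors' deposited table (DESeq2 p = 2.49e-04, adjusted p = 0.309). With IL-4 they were 1476 and 2504, at 0.76 ± 0.21 in the authors' deposited table (DESeq2 p = 3.09e-04, adjusted p = 0.141). Its difference was larger than that of any of the 10 members under either treatment, and it too did not pass.

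Among 13 measured partners and coregulators of LXR, 6 were higher and 7 lower with PBS (median -0.01), and 10 were higher and 3 lower with IL-4 (median 0.16). Ncoa3, a coactivator of nuclear receptors, was at 0.39 ± 0.20 with IL-4 in the authors' deposited table (DESeq2 p = 0.0479, adjusted p = 1.00). Of 12 receptors for sterol and lipoprotein uptake, among them the targets of IDOL, 7 were higher with PBS and 8 with IL-4, with medians of 0.12 and 0.08. Lrp8, an IDOL target, stood at -0.44 ± 0.35 under PBS and -0.49 ± 0.38 under IL-4 in the authors' deposited table. Olr1, a scavenger receptor for oxidized LDL, was at -1.32 ± 0.86 and -0.18 ± 0.55 there. DESeq2 called 0 genes of either list.

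Of 14 genes of lipid droplet storage 9 were higher with PBS and 10 with IL-4 (medians 0.08 and 0.12), none at an unadjusted p under 0.05. Soat1, which esterifies cholesterol for the droplets that Plin2 coats, stood at 0.50 ± 0.33 under PBS and 0.26 ± 0.21 under IL-4 in the authors' deposited table. Pnpla2, the lipase that opens droplets, was at -0.32 ± 0.26 and 0.27 ± 0.19 in the authors' deposited table. Of 14 genes of oxysterol synthesis and sensing 8 and 9 were higher (medians 0.03 and 0.02), again with none at an unadjusted p under 0.05. Osbpl8, an oxysterol-binding protein, was at 0.19 ± 0.28 and 0.29 ± 0.16 and Osbp at 0.24 ± 0.26 and 0.09 ± 0.18 in the authors' deposited table.

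DESeq2 called 0 genes of the remaining lists as well. Of 11 other lipid transporters of the ABC family 4 were higher with PBS and 5 with IL-4 (medians -0.09 and -0.05, and 0.12 with IL-4 over the 8 of base mean 100 or more). Abca2 was at 0.04 ± 0.27 and 0.36 ± 0.21 in the authors' deposited table. Of the 7 PPAR receptors and targets 2 were higher with PBS and 4 with IL-4 (medians -0.10 and 0.10), with Ppard at -0.57 ± 0.35 and 0.24 ± 0.27 and Fabp5 at -0.18 ± 0.24 and -0.29 ± 0.17 in the authors' deposited table. Acyltransferases related to Lpcat3 had medians of -0.07 over 8 genes with PBS and 0.08 over 9 with IL-4. Lclat1 was at -0.25 ± 0.46 and 0.45 ± 0.26 and Mboat2 at -1.19 ± 0.65 with IL-4 in the authors' deposited table. Other lipases and the factors that fold or process Lpl had medians of 0.05 over 6 genes and 0.12 over 7, with Furin at -0.04 ± 0.26 and 0.37 ± 0.20 and Lipg at 0.94 ± 0.57 and 0.23 ± 0.79 in the authors' deposited table.

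Sterol synthesis, which runs opposite to efflux in sterol control, had 15 of 22 genes higher with PBS and 18 of 22 with IL-4 (medians 0.06 and 0.12). With IL-4 Lss was at 0.51 ± 0.24 (DESeq2 p = 0.0299) and Scap, the escort of the SREBP factors, at 0.40 ± 0.19 (DESeq2 p = 0.0363) in the authors' deposited table, both with adjusted p = 1.00. Over all these lists, members left out, 86 of 126 genes were higher with IL-4 and 68 of 124 with PBS. Over all genes 48.9% were higher with IL-4 and 48.3% with PBS. At an unadjusted p under 0.05 stood 4 of 126 genes with IL-4, all higher, where 1.62% of all genes were higher at that p, and 1 of 124 with PBS, where the share was 0.534%.

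**Figure D4:**
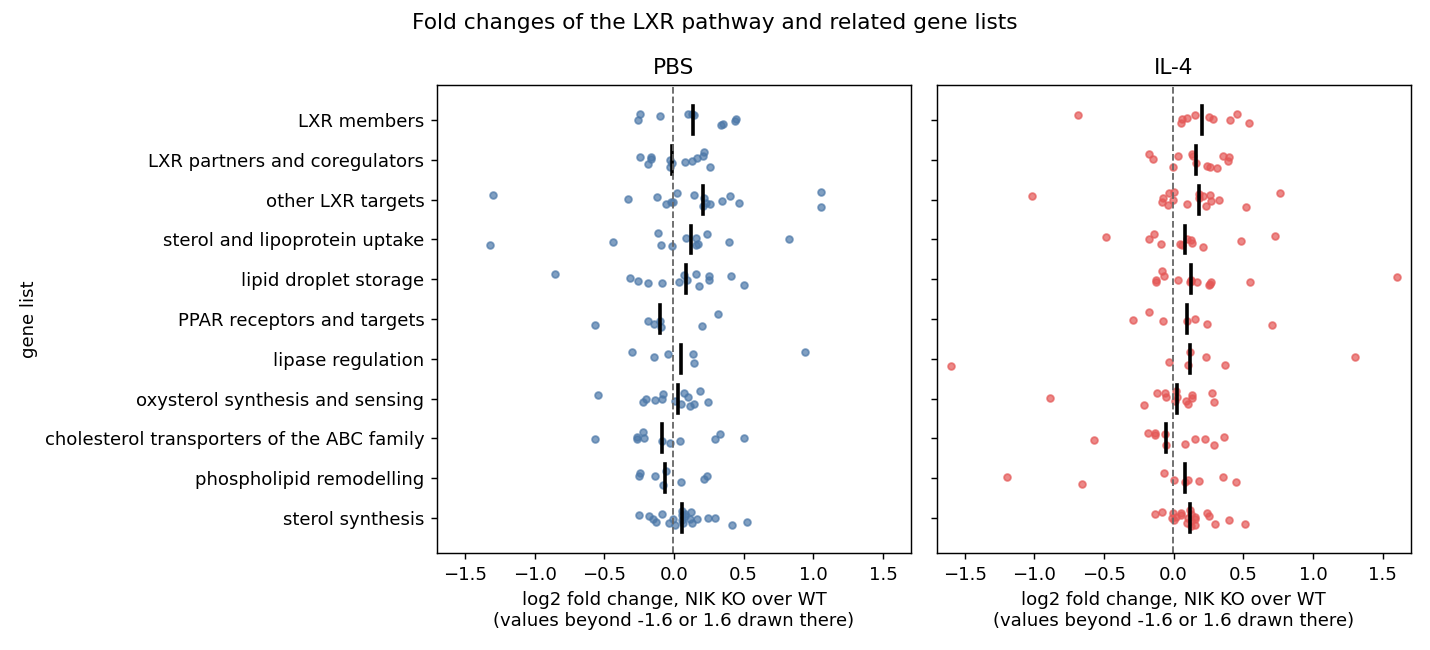
Log2 fold change, NIK KO over WT, of each gene (points) in the 10 members and in related gene lists, with each list's median (black bar) and the median of all genes (dashed line), PBS left and IL-4 right. The members' median is 0.14 in the PBS panel and 0.20 in the IL-4 panel, and those of the other lists between -0.10 and 0.21.

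Fibroblast and erythroid markers moved with genotype in the IL-4 table, and both kinds of cell can be present in marrow cultures. All 7 measured fibroblast markers were lower on the NIK KO side with IL-4, 5 at an unadjusted p under 0.05, where 1.32% of all genes were lower at that p, and Col3a1 was called (-2.34 ± 0.53, DESeq2 adjusted p = 0.0107, authors' deposited table). The summed means of the 7 were 651 in WT and 237 in NIK KO with IL-4. With PBS 6 were measured, with sums of 185 in WT and 138 in NIK KO. Of these 6, 5 were lower in NIK KO, none at an unadjusted p under 0.05. When the Wald statistics were referred to t with 2 residual degrees of freedom, 0 genes were called in either table, so the calls of Col3a1 and Map3k14 were lost. Of 5 measured erythroid markers 4 were lower with IL-4, with sums of 341 and 154, and 2 were lower with PBS. Other cell types went both ways with IL-4. Lower in NIK KO were 3 of 5 neutrophil markers, 2 of 2 B cell markers and the 1 T cell marker measured. Higher were 3 of 5 dendritic cell markers, 2 of 3 endothelial markers and the 1 mast cell marker measured. The defining adipocyte markers Lep, Plin1 and Cidec were not listed in either table. Adipoq was listed with IL-4 alone, at a low base mean of 7.30, with means of 2.93 in WT and 11.7 in NIK KO. In the authors' deposited table it stood at 1.99 ± 1.63 (DESeq2 p = 0.220). Apoe, Lpl and Plin2 are also known in stromal cells and adipocytes, and the part of such cells in the members' values was not tested. Fewer cells of a type and less RNA per cell cannot be told apart in such bulk libraries.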

How the data were processed

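RNA of 8 libraries was compared by genotype within each treatment. The submitters' processing notes name Salmon 1.4.0, DESeq2 1.32.0 and build GRCm39 without their roles. The authors deposited, per the file headers, a base mean, which is a signal that averages counts over size factors, the log2 fold change with its standard error, a Wald score, a p-value and an adjusted p-value. The deposited adjusted values were recovered by Benjamini-Hochberg adjustment to within 3.20e-05, and 551 genes with IL-4 have no adjusted p. The name of the IL-4 table gives its direction, NIK KO over WT, which was applied to both.

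Group means were recovered from base mean and fold change, assuming equal weights. The coefficient of variation was approximated from the standard error. The effect's change between treatments was tested by a two-sided z test with Benjamini-Hochberg adjustment over 13384 genes, with errors taken as independent although mice are shared. Lists were described by counts and medians. Members and lists were chosen with earlier results of these data known. All members were described. From other lists, genes at an unadjusted p under 0.05 were named, otherwise the 2 with the largest Wald statistics. Map3k14, Nfkb2 and Relb were named to check the labels. A gene that this rule named is not reported here. Transcript lengths, overlaps and 31-base words came from GENCODE M21 (GRCm38), and promoters from RefSeq (GRCm38.p6), neither being the authors' build. Python 3.11.15, numpy 2.4.6, pandas 2.3.3, scipy 1.17.1, statsmodels 0.14.6 and matplotlib 3.10.9 were used, and the steps were tested on simulated data. Where nothing states separate cultures beyond the mice, p-values measure the spread between these libraries.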

Additional observations from a re-analysis of the deposited data

How the results depend on the processing

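The count of called members stayed at 0 in each treatment and in the difference between treatments under all 7 alternatives each: adjustment over every gene, over genes of base mean 10 or 100 and more, centring, subtraction of a trend on transcript length or on base mean, and either a t distribution with 2 degrees of freedom or an error correlation of 0.5 between the tables. Some of these could not have added a call. The t distribution only raises p, and adjustment over every gene equals the main setting with PBS and for the difference. Over all genes, the t distribution took the calls from 5 to 0 with PBS and from 17 to 0 with IL-4, those of Map3k14 and Col3a1 included. The error correlation raised the calls of the difference from 2 to 20. The smallest adjusted p of a member under the alternatives was 0.663 with IL-4. The median of the members ranged from 0.09 to 0.14 with PBS and from 0.18 to 0.28 with IL-4. Their mean was 0.14 with PBS and 0.16 with IL-4. Weighted by the inverse squared standard error, the mean was 0.20 and 0.24. Each of the 10 genes kept its sign in both tables after centring and after either trend was subtracted. No paired analysis was possible because the tables hold 1 value per gene and comparison, with no value per library, and for the same reason no replicate could be left out. With 2 mice on each side, each standard error also draws on the authors' model of other genes.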

Other observations

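The wide error of Apoe was shared with a small set of abundant genes, looked for after its value was seen. Of 2847 genes with a base mean of 1000 or more in both tables, 10 had a standard error at least as large as that of Apoe in both, Apoe included. The others were Saa3, an acute-phase protein, Acod1, the enzyme that makes itaconate, Clec4e, a receptor for mycobacterial glycolipid, Gpr84, Marco, a scavenger receptor, Sod2, the mitochondrial superoxide dismutase, Marcksl1, Gm28437 and mt-Atp6. In the authors' deposited table the standard errors of Saa3 were 1.27 with PBS and 1.32 with IL-4, those of Acod1 1.06 and 1.13, and those of Gpr84 1.07 and 1.00, where the medians over the 2847 genes were 0.26 and 0.18. Their fold changes between genotypes ran from -0.63 (mt-Atp6) to 0.83 (Marco) with PBS and from -0.24 (mt-Atp6) to 0.48 (Marco) with IL-4 in the authors' deposited table, each smaller than its standard error. Whether the same library stands apart for all of them was not tested, since the tables hold no value per library.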
